A study of Mus musculus with 18 samples.

Results

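The input small RNA libraries of cells 6 days after knockdown of Pus1 (KD6) were compared with those of wild-type (WT) cells, to ask how the abundance of each microRNA (miRNA) differed between them before any immunoprecipitation (IP). The comparison took 3 KD6 input and 3 WT input libraries, 6 of the 18 in the series, chosen by their labels. The miRNA table listed 1907 mature miRNAs, of which 1111 had reads in these 6 libraries and 533 passed a filter on low counts and were tested. All libraries came from NIH/3T3, a mouse embryonic fibroblast line grown in serum, from total RNA reduced to its small RNA fraction, and each group had replicates named A, B and C. The WT group is labelled WildType, with no statement of a control treatment or of its time in culture, and the KD6 group is labelled as a Pus1 knockdown of 6 days, a knockdown the study made with siRNA. Another group of inputs, 3 days after the knockdown (KD3), entered the same fit and shared its estimate of the spread. No source said whether A, B and C were separate cultures, so the p-values measure the spread between these libraries, which may be technical. The table held miRNAs only, so the Pus1 transcript was outside it, and the extent of the knockdown was not checked.

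PUS1 is an enzyme that converts uridine to pseudouridine (Ψ) in tRNAs and other RNAs. A miRNA is cut from a hairpin by Drosha and Dicer, one or both arms of the hairpin (5p and 3p) are loaded into Argonaute, and bases 2 to 8 of the mature strand, the seed, pair with target mRNAs. Many miRNAs are made from clusters that are transcribed together, and fibroblasts are known for high levels of miR-21, the let-7 family and the miR-199/214 and miR-143/145 clusters.

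The mature sequences of the miRNAs that the results turn on are given here as RefSeq holds them (GRCm38.p6), 5′ to 3′, with the seed in capitals. Of the 533 miRNAs tested, 456 had a RefSeq sequence. The first set was lower in KD6 input, miR-96-5p only without the shallow library KD6 input A, and holds the members of the cluster of miR-183, miR-96 and miR-182, both arms of miR-423, and miR-214, miR-299a and miR-296. The seeds of the members of this cluster differ from each other.
miR-183-5p: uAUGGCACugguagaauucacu
miR-182-5p: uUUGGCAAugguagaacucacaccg
miR-96-5p: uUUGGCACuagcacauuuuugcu
miR-423-5p: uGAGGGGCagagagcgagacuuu
miR-423-3p: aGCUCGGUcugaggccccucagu
miR-214-3p: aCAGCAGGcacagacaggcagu
miR-299a-3p: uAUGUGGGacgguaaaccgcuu
miR-296-3p: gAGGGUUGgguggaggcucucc

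The second set was higher in KD6 input, miR-148b-3p and miR-411-3p only without KD6 input A. The members miR-152-3p and miR-148b-3p share the seed CAGUGCA, and miR-379-3p and miR-411-3p share AUGUAAC.
miR-206-3p: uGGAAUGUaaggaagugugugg
miR-152-3p: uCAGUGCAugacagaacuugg
miR-148b-3p: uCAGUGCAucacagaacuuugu
miR-379-3p: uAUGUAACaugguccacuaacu
miR-411-3p: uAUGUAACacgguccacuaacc
miR-382-5p: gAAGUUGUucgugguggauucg

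The third set compares the minor 3p arms of the pair of miR-181a hairpins, which moved in opposite directions.
miR-181a-1-3p: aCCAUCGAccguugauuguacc
miR-181a-2-3p: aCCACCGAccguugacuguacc

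The fourth set depended on KD6 input A, the library with few reads. The members miR-17-5p, miR-20a-5p and miR-93-5p share the seed AAAGUGC, miR-26a-5p and miR-26b-5p share UCAAGUA, and miR-99b-5p and miR-100-5p share ACCCGUA.
miR-17-5p: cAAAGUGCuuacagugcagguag
miR-20a-5p: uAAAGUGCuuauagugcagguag
miR-93-5p: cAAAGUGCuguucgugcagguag
miR-26a-5p: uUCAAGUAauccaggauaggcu
miR-26b-5p: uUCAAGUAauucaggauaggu
miR-30c-5p: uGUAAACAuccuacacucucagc
miR-99b-5p: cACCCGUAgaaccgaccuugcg
miR-100-5p: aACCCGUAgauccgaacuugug
miR-21a-5p: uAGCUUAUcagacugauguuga

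Of the other named miRNAs, miR-143-3p, miR-143-5p, miR-145a-3p, miR-378a-3p, miR-532-5p, miR-669c-5p and miR-669o-5p are given by name only.

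The libraries were not equally deep. WT input had 9973764 to 12530362 mapped reads and KD6 input B and C had 6419408 and 9256836, while KD6 input A had 241109. In KD6 input A 382 mature miRNAs were detected, against 814 to 892 in each of the other 5. The limit that a count of 0 allows, 3 counts, was 17.3 CPM in KD6 input A and at most 0.46 CPM in the others, where CPM is the count scaled to the miRNA total of the library after TMM adjustment. Such limits cover counting error only, since amplified reads are not independent molecules. The TMM factor was 0.77 in KD6 input A, 1.12 and 1.23 in KD6 input B and C, and 1.00 to 1.05 in WT input. CPM values of KD6 input A are thus raised relative to its shares of miRNA reads. KD6 input A also stood apart in composition, with 48.1% of its miRNA reads in miR-21a-5p, against 32.8% and 29.5% in KD6 input B and C and 35.7% to 38.4% in WT input. Reads outside the miRNA rows made up 5.47% to 5.86% of mapped reads in WT input and 6.88%, 9.61% and 9.96% in KD6 input A, B and C. The main results are therefore given with and without KD6 input A.

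KD6 input differed from WT input for 43 of the 533 tested miRNAs (8.07%), by edgeR's quasi-likelihood test at a Benjamini-Hochberg adjusted p under 0.05. Of these, 26 were higher (4.88%) and 17 lower (3.19%) after the knockdown. Without KD6 input A, 118 of 558 (21.1%) passed, 60 higher (10.8%) and 58 lower (10.4%). In 262 of the 558 (47.0%) KD6 input B and C lay on one side of all WT libraries, and with KD6 input A this held for 119 of 533 (22.3%). All 43 were among these 118 with the same direction, and the other 75 were called only without KD6 input A. In such bulk libraries fewer cells of a type and less RNA per cell cannot be told apart. The changes were moderate. Of the 43, 22 exceeded 2-fold, and a test for a change beyond 1.5-fold (glmTreat) called only miR-143-5p (adjusted p = 0.0149). The number of calls rested on single libraries: it was 23, 10 and 14 without WT input A, B or C, 34 and 25 without KD6 input B or C, and 29 to 32 without a KD3 input. Of the 43, 9 were called in each of the 9 fits that left out 1 input library, and 6 of these also under every other alternative except glmTreat. The other 3, miR-143-5p, miR-206-3p and miR-1983, missed the threshold when all 18 libraries entered the fit (adjusted p = 0.0834, 0.0657 and 0.199).

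The split between higher and lower calls moved with the scaling and with the fit. It was 26 higher to 17 lower with TMM factors, 27 to 17 with RLE factors and 25 to 16 with library size alone, but 13 to 23 with upper-quartile factors. It was 2 to 21 when all 18 libraries entered the fit and 15 to 21 with DESeq2, alternatives that changed more than the scaling. The median log2 ratio of all tested miRNAs was -0.0013 with TMM factors, -0.13 with upper-quartile factors and -0.24 over all 18 libraries. None of the 43 was called in the opposite direction under any of the alternatives. The plot of ratios with and without KD6 input A shows the called miRNAs close to the diagonal, but the fits share all other libraries.

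**Figure D1:**
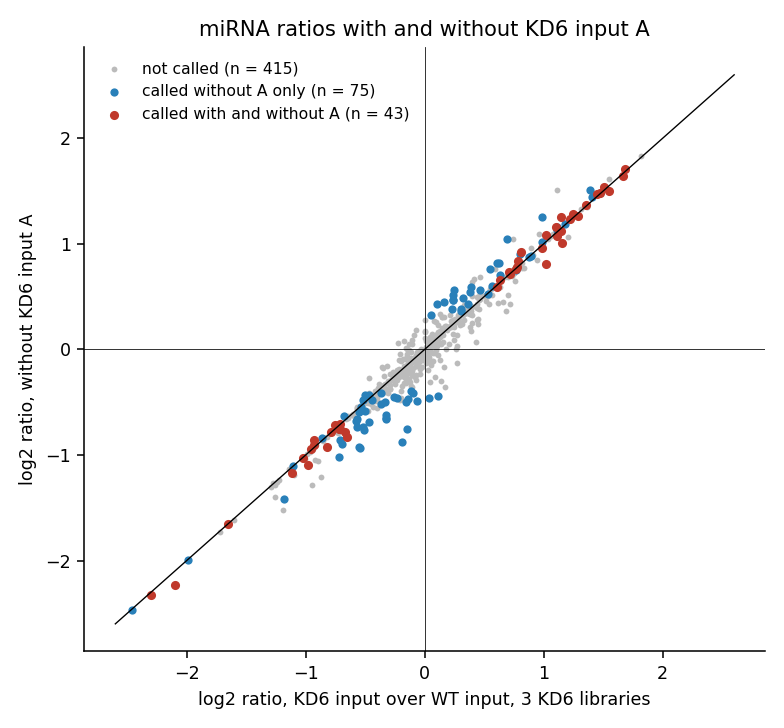
The log2 ratio of KD6 input over WT input from 3 KD6 libraries (x axis) against the ratio without KD6 input A (y axis), 1 point per miRNA tested in both fits (n = 533), with the line of equality. The 43 miRNAs called in both fits lie near the line, and 65 of the 75 called only without A lie farther from 0 on the y axis than on the x axis. Both sets were chosen by the calls of these fits, which share all libraries but KD6 input A, so their placement is a description.

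Among the miRNAs that were lower at day 6, the cluster of miR-183, miR-96 and miR-182, which is transcribed as 1 unit and is best known from sensory cells, fell in 2 of its 3 members. miR-183-5p (chr6:30169711-30169732, outside other annotated genes) was at 979.5, 991 and 956 CPM in WT input A, B and C and 571, 469 and 459.9 CPM in KD6 input A, B and C. All KD6 libraries lay below all WT libraries, as they did for 69 of the 533 tested miRNAs (12.9%). The log2 ratio was -0.98 ± 0.16 (SE, 1.97-fold lower, edgeR adjusted p = 0.00634), and -1.09 ± 0.13 without KD6 input A (adjusted p = 0.000375). miR-182-5p (chr6:30165962-30165986) was at 1059, 1053 and 978 CPM in the WT libraries and 652, 516 and 591 CPM in the KD6 libraries, again without overlap, with a log2 ratio of -0.82 ± 0.19 (SE, 1.77-fold lower, edgeR adjusted p = 0.0226) and -0.92 ± 0.18 without KD6 input A (adjusted p = 0.00517). Its call was lost without WT input A, B or C or KD6 input B (adjusted p up to 0.0783), and that of miR-183-5p was kept in each omission. The least abundant member, miR-96-5p, was at 66.3, 72.6 and 84.6 CPM in the WT libraries and 46.1, 49.96 and 54.05 CPM in the KD6 libraries. Its KD6 libraries were also below every WT library, but the ratio of -0.54 ± 0.15 passed the threshold only without KD6 input A (edgeR adjusted p = 0.0513 with it and 0.0174 without). The summed share of the 3 members was 0.215% ± 0.00565 of miRNA reads in WT (SD, n = 3) and 0.0980%, 0.116% and 0.136% in KD6 input A, B and C, and the two-sided exact permutation test gave p = 0.1, which is the lowest value open to 3 against 3.

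Both arms of miR-423, whose hairpin lies in an intron of Nsrp1 on the minus strand, fell to a similar degree. miR-423-3p (chr11:77078086-77078108) was at 1680.4, 1682 and 1402 CPM in WT input A, B and C and 773, 946 and 772 CPM in KD6 input A, B and C. miR-423-5p (chr11:77078122-77078144) was at 996, 1003 and 848 CPM in the WT libraries and 415, 584 and 477 CPM in the KD6 libraries. In neither arm did the groups overlap. The log2 ratios were -0.93 ± 0.16 (SE, 1.91-fold lower, edgeR adjusted p = 0.00634) and -0.93 ± 0.16 (SE, 1.91-fold lower, edgeR adjusted p = 0.00634), and without KD6 input A -0.91 and -0.86. The call of miR-423-3p was kept in every omission of 1 library, and that of miR-423-5p was lost only without WT input B (adjusted p = 0.0535). Of 137 hairpins with both arms tested, miR-423 alone had both called in the same direction in the fit with KD6 input A, and 5 hairpins did without it.

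miR-214-3p, which is made with miR-199a from the Dnm3os transcript (chr1:162223438-162223459, exon), was at 2277, 2253 and 2321 CPM in WT input A, B and C and 1274, 1229 and 1469.7 CPM in KD6 input A, B and C. Every KD6 library was below every WT library. The log2 ratio of -0.78 ± 0.14 (SE, 1.72-fold lower, edgeR adjusted p = 0.00634) was nearly the same without KD6 input A, at -0.79 ± 0.09, and the call was kept in each omission. The 5p arm of its hairpin, miR-214-5p, had a ratio of -0.31 that did not pass (edgeR adjusted p = 0.297). The neighbour miR-199a-5p has a further locus on chromosome 9, so its reads cannot be assigned to Dnm3os alone. It was among the 8 most abundant miRNAs of WT input, at 21369, 17949 and 16949 CPM in the WT libraries and 13816, 15938 and 16977 CPM in the KD6 libraries. These groups overlapped, and the ratio of -0.27 ± 0.16 did not pass (edgeR adjusted p = 0.356). The other arm, miR-199a-3p, whose mature sequence is identical to that of miR-199b-3p so that their reads cannot be told apart, had a ratio of 0.24 with KD6 input A and 0.47 without it (adjusted p = 0.561 and 0.0026).

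Further lower miRNAs of moderate level were miR-299a-3p, of the miR-379/410 cluster, and miR-296-3p, from the imprinted Gnas region. miR-299a-3p (chr12:109710676-109710697) was at 400.1, 346 and 362 CPM in the WT libraries and 231, 223 and 222 CPM in the KD6 libraries, and miR-296-3p (chr2:174267058-174267079) at 439, 444 and 376 CPM in the WT libraries and 219, 283 and 233 CPM in the KD6 libraries. All KD6 libraries were below all WT libraries for both. Their log2 ratios were -0.72 ± 0.14 and -0.76 ± 0.16 (edgeR adjusted p = 0.0112 and 0.0158), and -0.76 and -0.72 without KD6 input A. With an offset for GC content and without KD6 input A the ratio of miR-299a-3p was -0.70 and that of miR-296-3p -0.29, the latter no longer called (adjusted p = 0.159). With all inputs the first call was lost without WT input C (adjusted p = 0.0549), and the second without WT input A, B or C or KD6 input C (up to 0.0865). miR-10a-5p, of the Hoxb cluster, was at 2544, 2629.6 and 2561 CPM in the WT libraries and 1989, 1506 and 1448 CPM in the KD6 libraries, with a ratio of -0.65 ± 0.16 (SE, 1.57-fold lower, edgeR adjusted p = 0.0317) and -0.83 ± 0.12 without KD6 input A (adjusted p = 0.00113). In CPM, KD6 input A lay between the WT libraries and the other KD6 libraries, and the call was lost in 6 of 9 omissions. As a share of miRNA reads KD6 input A was the lowest of the libraries compared, at 0.154%. miR-10b-5p, of the Hoxd cluster and with the same seed, had a ratio of -0.19 ± 0.17 (adjusted p = 0.561).

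The remaining lower miRNAs of the naming rule, miR-1306-5p, miR-1947-5p, miR-877-5p, miR-350-5p and miR-181a-2-3p, were scarce, with 1 to 3 counts in KD6 input A. miR-1306-5p, from an exon of Dgcr8, the gene of the partner of Drosha, was at 14.9, 14.5 and 15.5 CPM in the WT libraries and 11.5, 8.12 and 5.57 CPM in the KD6 libraries. miR-877-5p, a mirtron that is spliced from Abcf1 and needs no Drosha, was at 22.7, 31.01 and 23.7 CPM in the WT libraries and 5.77, 14.4 and 13.00 CPM in the KD6 libraries. Their values in KD6 input B and C lay below all WT values, and those in KD6 input A did not exceed 17.3 CPM, the level of 3 counts there, so this library cannot show a change in them. Over the 5, the log2 ratios ran from -1.11 to -0.71 (edgeR adjusted p from 0.0158 to 0.0266), and each call was lost in 3 to 6 of the 9 omissions of 1 library.

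miR-143-5p, the minor arm of the miR-143 hairpin, had the smallest p of the comparison. It was at 47.3, 44.7 and 42.1 CPM in WT input A, B and C and 109.6, 103 and 115 CPM in KD6 input A, B and C, with 19 reads behind the value of KD6 input A. Every KD6 library was above every WT library, as for 50 of 533 tested miRNAs (9.38%). The log2 ratio was 1.29 ± 0.14 (SE, 2.44-fold higher, edgeR adjusted p = 0.000591), and 1.26 ± 0.11 without KD6 input A (adjusted p = 0.000189), and the call was kept in each omission. Its major arm miR-143-3p, among the most abundant miRNAs of these cells, was at 65522, 60585 and 62828 CPM in the WT libraries and 120196, 68793 and 65797 CPM in the KD6 libraries. Those groups did not overlap either, but the ratio of 0.43 ± 0.22 did not pass (edgeR adjusted p = 0.267), and it was 0.07 without KD6 input A. The clustered miR-145a-3p, also a minor arm, was at 161, 139.9 and 169.8 CPM in the WT libraries and 190.3, 323 and 283 CPM in the KD6 libraries, all KD6 libraries above all WT libraries, with a ratio of 0.81 ± 0.18 (SE, 1.75-fold higher, edgeR adjusted p = 0.0207) and 0.93 ± 0.13 without KD6 input A (adjusted p = 0.000992). Without TMM factors the share of miR-145a-3p in KD6 input A was 0.0147% of miRNA reads, within the WT range of 0.0146% to 0.0178%. Its call was lost in 7 of the 9 omissions, those other than of KD6 input A or C (adjusted p up to 0.177).

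miR-206-3p, a myogenic miRNA of the miR-1 family (chr1:20679055-20679076, exon of Gm28653), was at 101, 124 and 106.6 CPM in WT input A, B and C and 213, 191 and 248 CPM in KD6 input A, B and C. The groups did not overlap, the log2 ratio was 0.98 ± 0.16 (SE, 1.98-fold higher, edgeR adjusted p = 0.00634) and 0.96 without KD6 input A, and the call was kept in each omission. Its relative miR-1a-3p went the other way, but from few reads. It had 13, 23.4 and 24 counts in WT input and 0, 2 and 4 in KD6 input, and a ratio of -2.30 ± 0.48 (SE, 4.93-fold lower, edgeR adjusted p = 0.0152), a call that was lost in 4 of 9 omissions. The other muscle miRNAs miR-133a-3p, miR-133b-3p, miR-208a-3p and miR-208b-3p had 0 reads in all 6 libraries.

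miR-152-3p (chr11:96850439-96850459, intron of Copz2), which targets DNA methyltransferase 1, was at 1039, 907 and 913 CPM in WT input A, B and C and 1430.1, 1544 and 1674 CPM in KD6 input A, B and C. The KD6 libraries were all higher, with a log2 ratio of 0.70 ± 0.14 (SE, 1.63-fold higher, edgeR adjusted p = 0.013) and 0.73 ± 0.10 without KD6 input A (adjusted p = 0.000711). The call was lost without WT input B or C (adjusted p up to 0.119). miR-148b-3p, with the same seed, had a ratio of 0.36 ± 0.16 with KD6 input A (edgeR adjusted p = 0.181) and passed only without it (0.43, adjusted p = 0.0289).

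The 3p arms of the 2 miR-181a hairpins differed in direction. miR-181a-1-3p, from chromosome 1, was at 37.7, 34.7 and 31.4 CPM in the WT libraries and 51.9, 55.2 and 60.01 CPM in the KD6 libraries. miR-181a-2-3p, from chromosome 2, was at 27.5, 30.7 and 29.2 CPM in the WT libraries and 11.5, 18.7 and 17.6 CPM in the KD6 libraries. The former had all KD6 libraries above WT and a log2 ratio of 0.72 ± 0.15 (SE, 1.64-fold higher, edgeR adjusted p = 0.0152), and the latter had them all below, with -0.71 ± 0.17 (SE, 1.64-fold lower, edgeR adjusted p = 0.0236). KD6 input A contributed 9 and 2 reads. The first call was lost without WT input B or C (adjusted p up to 0.0866) and the second in 6 of 9 omissions. The shared 5p arm cannot be assigned to a hairpin.

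**Figure D2:**
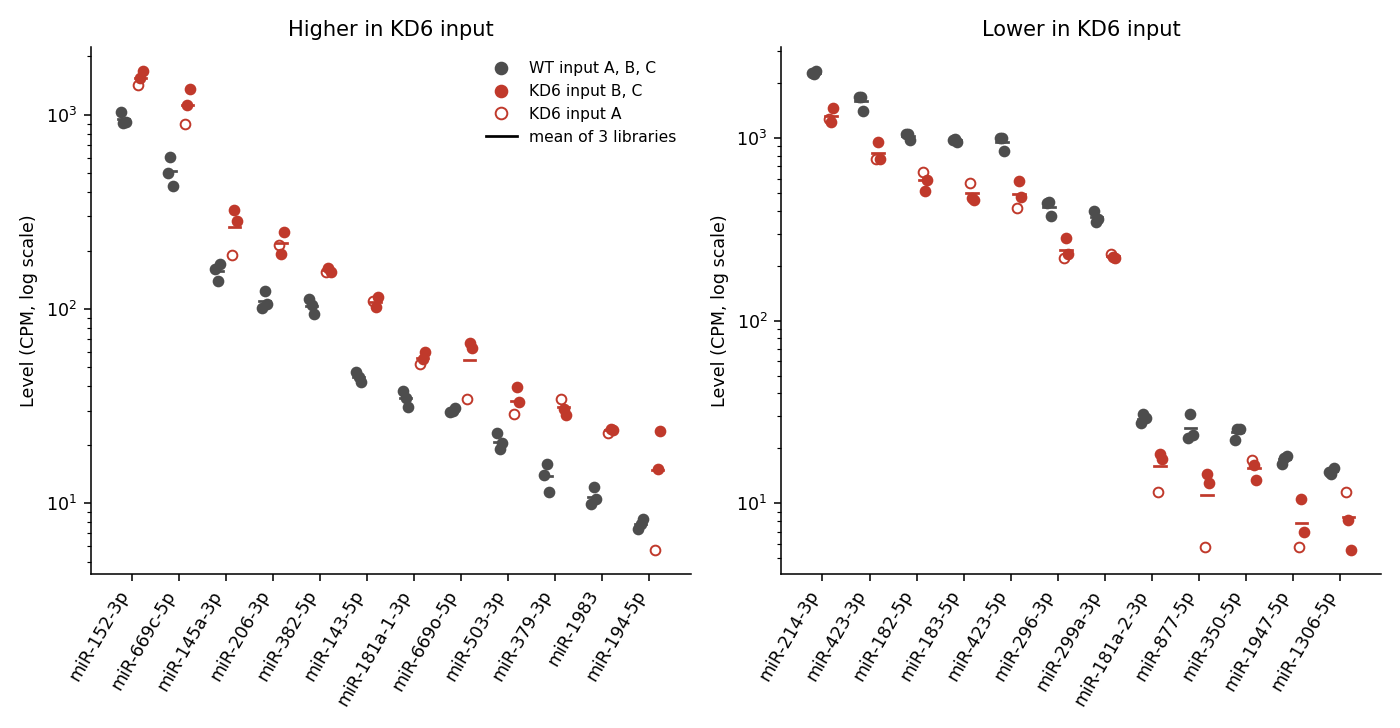
Levels (CPM with TMM factors, log axis) of the 12 miRNAs with the smallest p in each direction among the called miRNAs averaging 10 CPM or more. Points are single libraries, grey for WT input, red for KD6 input with A as an open circle, and bars are means of 3 libraries. WT and KD6 points do not overlap for 11 of the 12 higher miRNAs (miR-194-5p is the exception, through KD6 input A) and for all 12 lower ones. In shares of miRNA reads, without TMM factors, KD6 input A lay within the WT range for miR-145a-3p and miR-503-3p. It lay below that range for miR-669o-5p. For miR-1306-5p, miR-1947-5p, miR-877-5p, miR-350-5p and miR-181a-2-3p the KD6 input A point rests on 3 counts or fewer, so it cannot show a change.

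Of the large imprinted cluster in an intron of Sfmbt2, whose hairpins (miR-297, miR-466, miR-467 and miR-669) are repeats with near-identical copies, 24 of 70 listed miRNAs passed the filter. In this set 5 were called higher and 0 lower (8 of 26 and 0 without KD6 input A), where 4.88% of all tested miRNAs were called higher with KD6 input A and 10.8% without. The median log2 ratio of the members was 0.52, against -0.0013 over all tested miRNAs. The most abundant of the called members, miR-669c-5p, was at 499, 607 and 429.8 CPM in WT input A, B and C and 894, 1120.5 and 1365 CPM in KD6 input A, B and C. The groups did not overlap, the ratio was 1.15 ± 0.19 (SE, 2.22-fold higher, edgeR adjusted p = 0.00634) and 1.25 ± 0.13 without KD6 input A (adjusted p = 0.000375), and the call was kept in each omission. miR-669o-5p was at 29.5, 29.96 and 31.1 CPM in the WT libraries and 34.6, 67.1 and 63.04 CPM in the KD6 libraries, with the KD6 libraries above WT but KD6 input A only slightly so. The value in KD6 input A rests on few reads, since 3 counts equal 17.3 CPM there. Without TMM factors the share of miR-669o-5p there was 0.0027% of miRNA reads, below the WT range of 0.0030% to 0.0033%. The ratio of miR-669o-5p was 1.02 ± 0.19 (SE, 2.03-fold higher, edgeR adjusted p = 0.00982), and the call was lost without WT input B (adjusted p = 0.0731). The called members miR-669m-5p, miR-466b-5p and miR-297b-5p are outside the naming rule and were singled out after their values were seen. They were under 20 CPM, with ratios of 0.77, 1.55 and 1.35. The summed share of the cluster was 0.0772%, 0.0916% and 0.0739% in WT input and 0.0849%, 0.169% and 0.216% in KD6 input. KD6 input A thus lay within the WT range and B and C above it (exact permutation p = 0.2, and 0.1 without KD6 input A, two-sided). Reads of one copy can be counted to another, so single members of this cluster are uncertain.

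The imprinted miR-379/410 cluster on chromosome 12, expressed from the maternal chromosome, was represented by 54 tested of 75 listed miRNAs. Of these, 6 were called higher and 1, miR-299a-3p, lower (11 and 4 of 55 without KD6 input A), where 4.88% of all tested miRNAs were called higher and 3.19% lower (10.8% and 10.4% without KD6 input A). The median log2 ratio of the members was 0.29. With the highest level among the called members that rose, miR-382-5p was at 113, 105 and 93.9 CPM in the WT libraries and 156, 163 and 155 CPM in the KD6 libraries, with a ratio of 0.61 ± 0.14 (SE, 1.52-fold higher, edgeR adjusted p = 0.0236). miR-379-3p was at 14.1, 15.99 and 11.4 CPM in the WT libraries and 34.6, 30.5 and 28.5 CPM in the KD6 libraries, with a ratio of 1.11 ± 0.18 (SE, 2.16-fold higher, edgeR adjusted p = 0.00634) and 1.07 without KD6 input A. Neither pair of groups overlapped, but the value of miR-379-3p in KD6 input A rests on few reads, since 3 counts equal 17.3 CPM there. The call of miR-379-3p was kept in each omission, and that of miR-382-5p was lost in 7 of 9. The other called members, miR-154-3p, miR-369-3p, miR-377-3p and miR-668-3p, singled out after their values were seen, had 0 or 1 count in KD6 input A and under 25 CPM elsewhere. Their ratios ran from 0.79 to 1.67. As a whole the cluster took 1.02% ± 0.0213 of the reads in WT input and 1.11% ± 0.0123 in KD6 input (SD, n = 3, exact permutation p = 0.1, two-sided), a difference without overlap that KD6 input A shared.

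Other higher miRNAs of the naming rule were miR-194-5p, miR-1983 and miR-503-3p. miR-194-5p was at 7.39, 7.79 and 8.29 CPM in the WT libraries and 5.77, 15.02 and 23.7 CPM in the KD6 libraries, so KD6 input A, with 1 read, lay below the WT libraries and B and C above them. Its ratio was 1.25 ± 0.25 (SE, 2.37-fold higher, edgeR adjusted p = 0.0132), and the call was lost without WT input B or KD6 input C (adjusted p up to 0.0758). miR-1983 was at 9.93, 12.1 and 10.5 CPM in the WT libraries and 23.1, 24.2 and 23.8 CPM in the KD6 libraries, without overlap, with a ratio of 1.14 ± 0.20 (SE, 2.21-fold higher, edgeR adjusted p = 0.00634) and a call kept in each omission. miR-503-3p, the minor arm of a miRNA of the miR-16 superfamily, was at 22.9, 19.00 and 20.3 CPM in the WT libraries and 28.8, 39.5 and 33.04 CPM in the KD6 libraries, without overlap, with a ratio of 0.78 ± 0.18 (SE, 1.72-fold higher, edgeR adjusted p = 0.0226) that lost its call in 5 of 9 omissions. In KD6 input A, where 3 counts equal 17.3 CPM, the values of miR-1983 and miR-503-3p rest on few reads. Without TMM factors the share of miR-503-3p there was 0.0022% of miRNA reads, within the WT range of 0.0020% to 0.0023%.

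The 8 most abundant miRNAs of WT input included no call in the fit with KD6 input A. miR-21a-5p, an abundant miRNA of fibroblasts (chr11:86584120-86584141, exon of Vmp1), was at 357999, 342359 and 366725 CPM in WT input A, B and C and 622892, 291382 and 240615 CPM in KD6 input A, B and C. KD6 input A was above every WT library and B and C were below. The ratio was 0.11 ± 0.29 (edgeR adjusted p = 0.871) and turned to -0.44 ± 0.11 without KD6 input A (adjusted p = 0.0162). let-7i-5p was at 103649, 96242 and 84199.8 CPM in the WT libraries and 114049, 109224 and 89065 CPM in the KD6 libraries, and let-7f-5p at 41646, 40582 and 34609 CPM in the WT libraries and 38681, 37970.5 and 31135 CPM in the KD6 libraries. For both the groups overlapped, with and without KD6 input A, and the ratios were 0.14 ± 0.16 and -0.12 ± 0.15 (adjusted p = 0.666 and 0.719). miR-99b-5p, of the miR-99/100 family, was at 55502, 53779 and 50002 CPM in the WT libraries and 48427, 33219 and 30090.2 CPM in the KD6 libraries, all KD6 libraries below all WT libraries, with a ratio of -0.51 ± 0.18 (adjusted p = 0.103) and -0.77 ± 0.10 without KD6 input A (adjusted p = 0.000474). miR-100-5p, which shares its seed, was at 34253, 32689 and 31348 CPM in the WT libraries and 41201, 24202 and 22856 CPM in the KD6 libraries, and its ratio went from -0.16 to -0.50 without KD6 input A (adjusted p = 0.724 and 0.0026). In CPM, KD6 input A again lay above every WT library in miR-100-5p. As a share of miRNA reads, without TMM factors, KD6 input A was at 3.18%, below the WT range of 3.28% to 3.44%.

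Several abundant or well-known miRNAs were called only without KD6 input A. miR-17-5p, of the oncogenic miR-17/92 cluster (chr14:115043684-115043706, exon of Mir17hg), was at 347, 342 and 317 CPM in WT input A, B and C and 133, 607 and 800.1 CPM in KD6 input A, B and C. KD6 input A was below every WT library, from 23 reads, and B and C were above. The ratio was 0.69 ± 0.39 (edgeR adjusted p = 0.324) and 1.04 ± 0.12 without KD6 input A (adjusted p = 0.000375). miR-20a-5p of the same cluster followed the same pattern, at 1249.5, 1234 and 1154 CPM in the WT libraries and 588, 1515 and 2130.3 CPM in the KD6 libraries. Of the 11 tested miRNAs of this cluster and its paralogs, 0 were called with KD6 input A and 3 higher without it, beside 8.07% of all tested miRNAs called with it and 10.8% called higher without it. The summed share of these miRNAs was 0.494% in KD6 input A, 1.20% and 1.58% in B and C and 1.03% to 1.11% in WT input.

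miR-26b-5p (chr1:74394324-74394344, intron of Ctdsp1) was at 359, 413 and 449 CPM in the WT libraries and 363, 709.6 and 1277 CPM in the KD6 libraries, and miR-30c-5p at 1467, 1454 and 1276 CPM in the WT libraries and 1257, 2364 and 2464 CPM in the KD6 libraries. In CPM, KD6 input A lay within the WT range for miR-26b-5p and just below it for miR-30c-5p, and B and C lay above it for both. In shares of miRNA reads KD6 input A lay below the WT range for both, at 0.028% and 0.0971%. Their ratios without KD6 input A were 1.25 ± 0.19 and 0.76 ± 0.09 (edgeR adjusted p = 0.00146 and 0.000375), against 0.98 and 0.55 with it (adjusted p = 0.086 and 0.146). miR-374b-3p, from the Ftx locus near Xist, had 0 reads in KD6 input A, where 3 counts equal 17.3 CPM, and 16.9 and 21.8 CPM in B and C against 8.45, 8.44 and 8.55 CPM in WT input. It was called in both fits, but not in 7 of the 9 omissions.

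In the other direction, miR-378a-3p, made from an intron of the metabolic coactivator gene Ppargc1b, was at 6125, 5731 and 5839 CPM in the WT libraries and 9030.3, 3526 and 2998 CPM in the KD6 libraries. KD6 input A was the highest of the 6 libraries and B and C the lowest. The ratio moved from -0.20 ± 0.33 (edgeR adjusted p = 0.797) to -0.87 ± 0.11 without KD6 input A (adjusted p = 0.000566). Reads of the miR-378 family can be shared between its near-identical copies. miR-378c was at 366, 359 and 377 CPM in the WT libraries and 346, 195 and 173 CPM in the KD6 libraries, miR-532-5p at 2588, 2710.0 and 2528 CPM in the WT libraries and 2641, 1461 and 1319 CPM in the KD6 libraries, and miR-674-3p at 614, 708 and 830.1 CPM in the WT libraries and 749.6, 403 and 367 CPM in the KD6 libraries. In each of these KD6 input A had the highest KD6 value. In CPM it lay within the WT range for miR-532-5p and miR-674-3p and just below it for miR-378c, and B and C lay well below it. In shares of miRNA reads KD6 input A lay below the WT range for miR-378c (0.0267%), miR-532-5p (0.204%) and miR-674-3p (0.058%), with B and C lower still. The ratios of miR-378c, miR-532-5p and miR-674-3p without KD6 input A were -1.02, -0.93 and -0.92. miR-140-3p, of cartilage and mesenchyme (chr8:107551288-107551308, exon of Wwp2), was at 4912, 4201 and 3947 CPM in the WT libraries and 3979, 2775 and 2703 CPM in the KD6 libraries. In CPM, KD6 input A lay within the WT range and B and C below it. The ratio was -0.69 ± 0.11 without KD6 input A (adjusted p = 0.00154) against -0.47 with it (adjusted p = 0.117). In shares of miRNA reads KD6 input A was the lowest of the 6 libraries, at 0.308%, with 0.312% and 0.332% in B and C.

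Other lists gave few calls in the fit with KD6 input A, where 8.07% of all tested miRNAs were called. None of the 9 let-7 family members tested was called (2 higher, miR-98-5p and let-7b-5p, and 1 lower, let-7e-5p, without KD6 input A), and the median ratio of the family was 0.00027. Its summed share was 18.2% ± 1.28 in WT input (SD, n = 3) and 14.04%, 22.1% and 20.1% in KD6 input A, B and C (exact permutation p = 0.8 with KD6 input A and 0.1 without, two-sided). The miR-30 and miR-26 families had 0 calls among 5 and 2 members (2 higher in each without KD6 input A), and the group of miR-99, miR-100 and miR-125 had 0 among 5 (2 lower without it). The summed share of this group was 10.7% ± 0.24 in WT input and 7.80%, 8.52% and 8.87% in KD6 input, without overlap (exact permutation p = 0.1). Of 8 miRNAs known to respond to p53, miR-194-5p was called higher with and without KD6 input A, and miR-34b-3p, miR-34c-5p and miR-192-5p were called lower only without it (-0.46, -0.50 and -0.49). None of the 6 miR-15/16, 3 miR-29, 4 miR-181, 3 inflammatory or 2 miR-103-3p and miR-107-3p members was called with KD6 input A, and without it only miR-181b-5p was (0.54, higher, edgeR adjusted p = 0.0353). In the miR-29 list the KD6 shares ran from 0.296% in A to 1.70% in C, around the WT range of 0.438% to 0.706%.

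**Figure D3:**
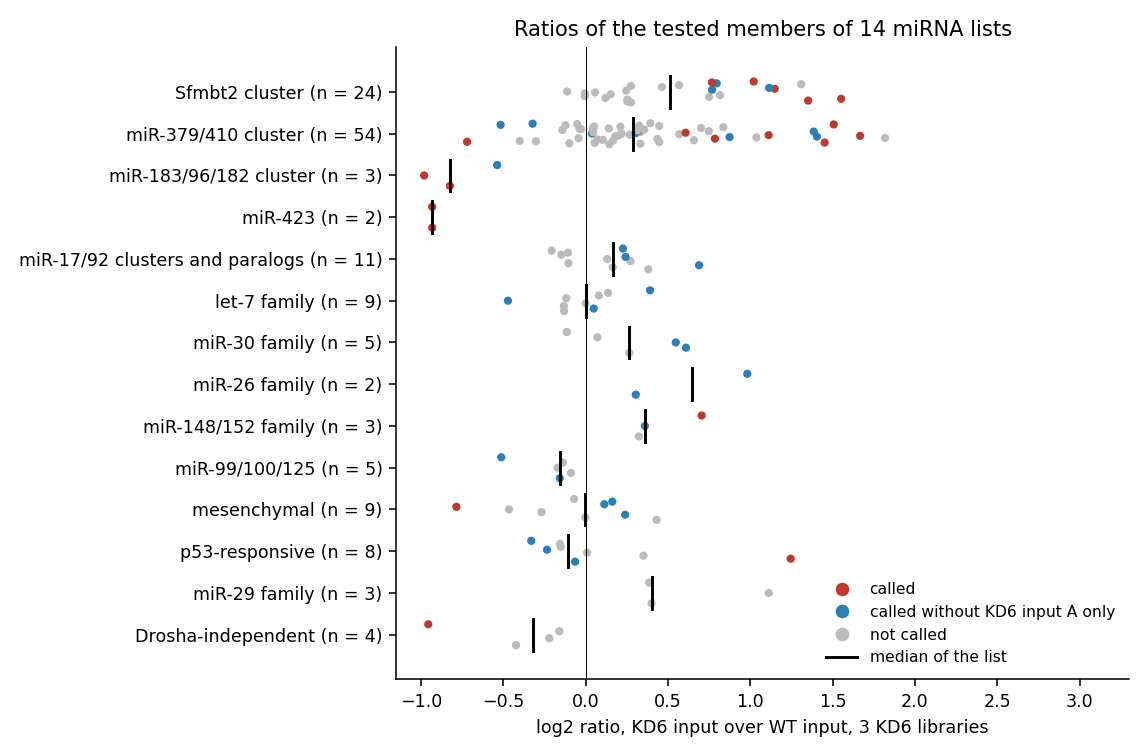
Log2 ratios of KD6 input over WT input with 3 KD6 libraries (x axis) for the tested members of 14 miRNA lists, 1 point per miRNA, red where called, blue where called only without KD6 input A and grey otherwise, with the median of each list as a bar. The Sfmbt2 and miR-379/410 clusters have medians of 0.52 and 0.29, and the tested members of miR-423 and of the cluster of miR-183, miR-96 and miR-182 all lie below 0.

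The 2 arms of a hairpin come from the same precursor, so the share of its reads in the 5p arm does not depend on the scaling between libraries. The 5p share did not overlap between the groups for 21 of 137 hairpins (15.3%). In miR-143 it was 0.0722%, 0.0738% and 0.0668% in WT input A, B and C and 0.0911%, 0.149% and 0.174% in KD6 input A, B and C. The value of KD6 input A rests on 19 of 20864 reads (exact 95% binomial interval 0.0548% to 0.142%). In miR-145a the 5p share was 88.4%, 88.1% and 85.8% in WT input and 79.6%, 78.6% and 82.4% in KD6 input, lower in each KD6 library, with an interval of 72.6% to 85.5% for KD6 input A. In miR-199b it was 36.6%, 31.9% and 30.7% in WT input and 24.3%, 20.2% and 25.7% in KD6 input. These arm shares cover 3p reads that miR-199a also gives. For single arms, 23 hairpins had 1 arm called (59 without KD6 input A) and 0 had arms called in opposite directions in either fit. Among the minor arms of all hairpins, 12 of 169 tested were called higher and 5 lower, beside 4.88% and 3.19% of all tested miRNAs, and 22 of 174 higher and 11 lower without KD6 input A, beside 10.8% and 10.4%.

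The IP libraries, made from RNA bound by a Ψ antibody, gave a second readout of KD6 against WT in libraries that the input comparison did not use. Whether they came from the same RNA as the inputs was not stated, and an IP level carries both the abundance and the recovery of a miRNA. Of 409 miRNAs tested there, 66 (16.1%) were called, 28 higher (6.85%) and 38 lower (9.29%). Of the 43 miRNAs called in input, 33 were tested in IP, 28 had the same direction, 9 were called in the same direction and 0 in the opposite one. Over all 391 miRNAs tested in both, 243 (62.1%) had the same direction. The called ones with moderate levels were miR-669c-5p, with a log2 ratio of 1.25 ± 0.20 (edgeR adjusted p = 0.00106), miR-145a-3p (1.21 ± 0.26, adjusted p = 0.00701), miR-423-3p (-0.89 ± 0.19, adjusted p = 0.00658), miR-423-5p (-0.56 ± 0.17, adjusted p = 0.0288) and miR-182-5p (-1.23 ± 0.19, adjusted p = 0.00106). miR-143-5p, miR-183-5p and miR-214-3p, called in input, had IP ratios of 0.35 ± 0.45, -0.40 ± 0.20 and -0.49 ± 0.22 that did not pass (edgeR adjusted p = 0.645, 0.188 and 0.124). miR-152-3p had an IP ratio of -0.20 ± 0.29. Of the 118 called in input without KD6 input A, 96 were tested in IP, 71 with the same direction, 24 called in the same direction and 3 in the opposite one, where 236 of 393 tested in both (60.1%) had the same direction.

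**Figure D4:**
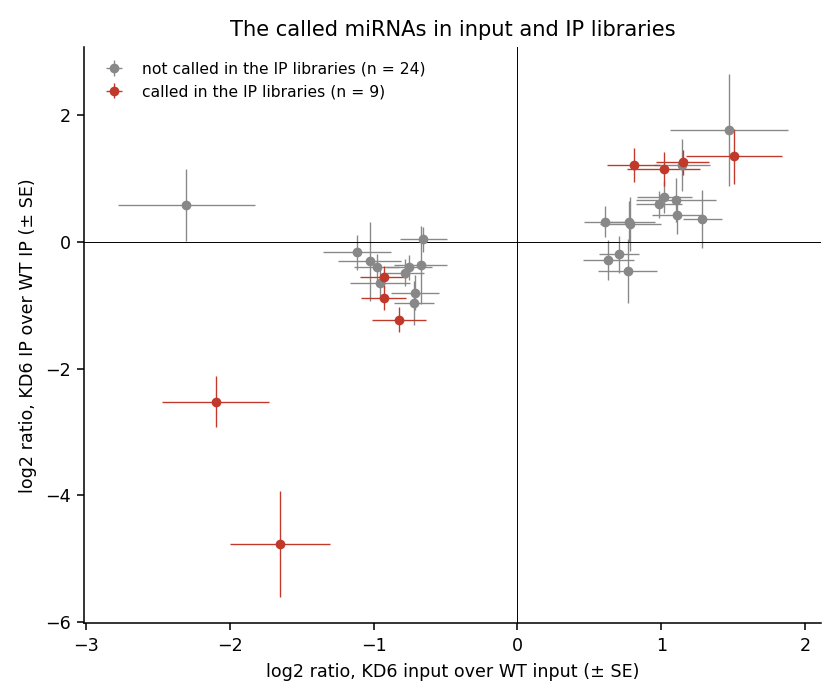
Log2 ratios of KD6 over WT in input (x axis) and in IP libraries (y axis), each ± SE, for the 33 miRNAs called in input that were tested in IP. Points are red where the IP ratio was also called (9) and grey otherwise (24), and 28 have ratios of the same sign on both axes.

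At day 3 after the knockdown, input differed from WT input for 0 of 533 miRNAs in the same edgeR fit (83 at an unadjusted p under 0.05). The day 3 and day 6 comparisons share the WT libraries, so their values are only set side by side. For miR-143-5p the log2 ratio to WT was 0.58 ± 0.13 at day 3 and 1.29 ± 0.14 at day 6. For miR-183-5p it was -0.15 and -0.98, for miR-423-3p -0.25 and -0.93, and for miR-206-3p -0.13 and 0.98. miR-299a-3p was at 536, 519.7 and 567 CPM in KD3 input, above all WT libraries, and below them at day 6. KD6 input differed from KD3 input for 45 miRNAs (8.44%), 25 higher (4.69%) and 20 lower (3.75%).

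The ratios moved with the base composition of the miRNAs. Over 478 miRNAs with a sequence, tested without KD6 input A, the log2 ratio and the GC content of the mature miRNA had a Pearson r of -0.42 and a Spearman rho of -0.41. The points share libraries and seed families, so r is a description. Median GC content was 40.9% among the miRNAs called higher, 56.5% among those called lower and 50.0% among those not called. For single libraries against the WT mean, over 134 miRNAs of at least 100 CPM, r was -0.10, -0.32 and -0.44 in KD6 input A, B and C, and between -0.12 and 0.11 in the WT and KD3 inputs. Among the named miRNAs, GC content was 65.2% in miR-423-3p, 59.1% in miR-214-3p and 33.3% in miR-26b-5p, but 40.9% in miR-183-5p, which fell. A curve of miRNA level on GC content was fitted to each library and entered as an offset in the fit without KD6 input A. The curves came from the tested libraries themselves, so this offset removed the GC trend between the groups by construction. With it, 76 of 478 miRNAs were called (38 higher and 38 lower) in place of 97, and 60 were called in both with the same direction. Under this offset the ratio of miR-423-3p went from -0.88 to -0.52, that of miR-423-5p from -0.83 to -0.64 and that of miR-214-3p from -0.76 to -0.51, all still called. That of miR-183-5p went from -1.07 to -1.24 and that of miR-17-5p from 1.07 to 1.03. 3 of the lower miRNAs named above lost their calls: miR-296-3p went from -0.70 to -0.29 (edgeR adjusted p = 0.159), miR-877-5p from -0.91 to -0.55 (0.0646) and miR-181a-2-3p from -0.68 to -0.43 (0.0901). Higher miRNAs lost calls too, among them miR-148b-3p (0.45 to 0.28, adjusted p = 0.22), miR-369-3p (0.86 to 0.48, 0.0713) and miR-199a-3p (0.49 to 0.32, 0.0927). Calls were kept by, among others, miR-152-3p (0.76 to 0.72), miR-206-3p (0.99 to 0.89) and miR-379-3p (1.10 to 0.87). With KD6 input A, r between the log2 ratio and GC content was -0.41 over 456 miRNAs with a sequence, again a description. Only 34 of the 43 miRNAs called in that fit had a sequence, under 80%, so a comparison of GC content over the called set is void.

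**Figure D5:**
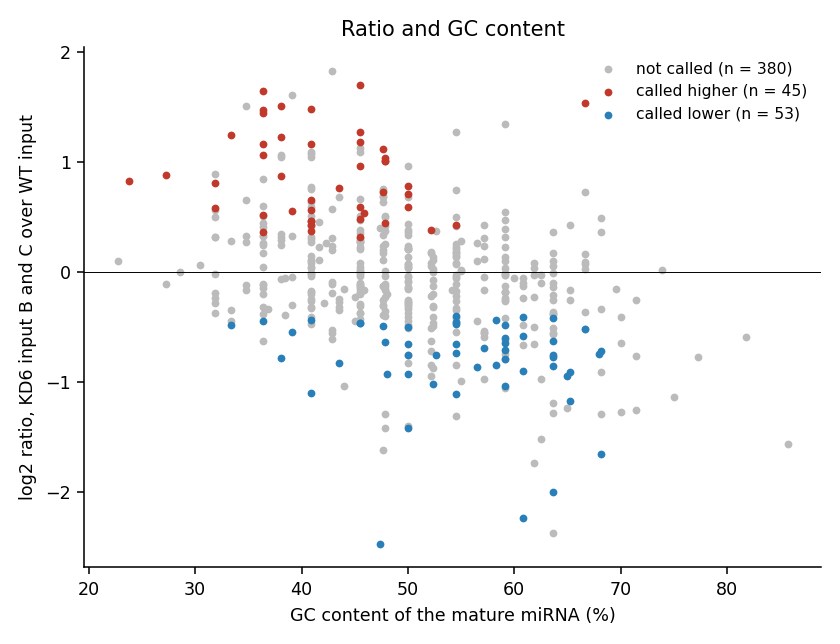
Log2 ratio of KD6 input B and C over WT input (y axis) against the GC content of the mature miRNA (x axis) for 478 miRNAs with a RefSeq sequence. Red points were called higher (45), blue points lower (53) and grey points not called (380), and the red points lie mostly at lower GC content than the blue ones.

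Of the 43 called miRNAs, 31 averaged 10 CPM or more across these libraries and 12 less, and 20 had 3 counts or fewer in KD6 input A. Some of the scarce ones had large ratios, and those named here were singled out after their values were seen. miR-1943-5p, from an intron of Tmem184b, was at 11.6, 10.3 and 9.08 CPM in the WT libraries and 11.5, 3.07 and 1.56 CPM in the KD6 libraries, with a ratio of -2.10 ± 0.37 (SE, 4.29-fold lower, edgeR adjusted p = 0.00677) and a call kept in each omission. KD6 input A, with 2 counts, lay within the WT range. Its IP ratio was -2.52 ± 0.40 (adjusted p = 0.00106). miR-210-5p, the minor arm of the hypoxia miRNA miR-210, was at 13.5, 11.9 and 8.73 CPM in the WT libraries and 0, 2.61 and 4.59 CPM in the KD6 libraries, with a ratio of -1.65 ± 0.35 (SE, 3.14-fold lower, edgeR adjusted p = 0.0158), a call lost without WT input B or KD6 input B, and an IP ratio of -4.76 ± 0.84 (adjusted p = 0.00213). miR-122-5p, the major miRNA of liver, was at 26.9, 36.2 and 24.8 CPM in the WT libraries and 109.6, 55.5 and 49.2 CPM in the KD6 libraries, with a ratio of 1.02 ± 0.25 (SE, 2.02-fold higher, edgeR adjusted p = 0.0305). KD6 input A, from 19 reads, was the highest of the 6 libraries, and the call was lost in 5 of 9 omissions. The other scarce or overlapping calls were miR-216b-5p, miR-217-5p, miR-181b-1-3p, miR-6516-5p and miR-10b-3p, higher with ratios from 0.63 to 1.68, and miR-582-3p, lower with -0.67.

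The labelled cell type was set against marker miRNAs. All 10 fibroblast and mesenchyme markers were detected and took 51.2% to 54.1% of the reads in WT input and 48.6% to 63.2% in KD6 input, the highest value being that of KD6 input A. Markers of several other cells were at or near 0. Blood markers held at most 0.000276% of miRNA reads in any of the 6 libraries (miR-142a-3p had 0 reads), epithelial markers at most 0.000444% (miR-141-3p and miR-203-3p had 0), endothelial markers at most 0.000276%, and 7 of 8 embryonic stem cell markers had 0 reads. Of 5 neuronal markers, miR-124-3p had at most 3 counts and miR-137-3p had 0, while miR-9-5p was at 3576, 3196 and 3053 CPM in the WT libraries and 3898, 3253 and 2875 CPM in the KD6 libraries, with overlapping groups. Also present were miR-128-3p, with 2729 to 5007 counts in WT input and 77, 2083 and 3303 in KD6 input A, B and C, and miR-9-3p, with 159 to 219 and 0.9, 136 and 245. Liver and muscle markers were not at 0, as given above for miR-122-5p and miR-206-3p. Liver markers held 0.0261% to 0.0300% in WT input and 0.0268% to 0.0399% in KD6 input, and 2 of 3, miR-122-5p and miR-194-5p, were called higher. The third, miR-192-5p, had the most reads of the list, 2132 to 2905 counts in WT input, and was called lower without KD6 input A. Without that library the mean share of the liver markers was 0.0283% in KD6 input, against 0.0281% in WT input. The part of such cells in these results was not tested. Muscle markers, of which only miR-206-3p exceeded 25 counts, held 0.0104% to 0.0131% in WT input and 0.0165% to 0.0306% in KD6 input.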

How the data were processed

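Small RNA-seq reads of input and Ψ-IP libraries of NIH/3T3 cells were processed by the authors with SeqImp (version not given in the sources used here) against mm10, and the deposited table gives the estimated count of reads per mature miRNA and hairpin row. Of the values above 0, 47.0% were not whole, and how reads that match several rows were divided is not given in the sources used here. Rows of the same mature miRNA were summed (78 miRNAs had several rows), the row of library totals was left out, and the sums were rounded to whole numbers. The deposited columns of distinct read sequences were not tested.

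The 9 input libraries entered 1 edgeR quasi-likelihood fit (edgeR 4.0.16 in R 4.3.3, glmQLFit and glmQLFTest) with TMM factors, the filterByExpr filter and 1 mean per group, and KD6 input was contrasted with WT input, with Benjamini-Hochberg adjustment over all miRNAs tested and a threshold of 0.05. IP libraries were fitted separately in the same way. Shares of reads were compared by two-sided exact permutation tests and binomial intervals are exact Clopper-Pearson ones at 95%. The procedure was run on simulated counts with known changes, drawn from 1 mean profile for all libraries. Those counts held neither the composition of KD6 input A nor the GC trend, so that run does not bear on them. Named miRNAs were the 12 with the smallest p per direction among those called and averaging 10 CPM or more, with and without KD6 input A, the 8 most abundant in WT input, and up to 4 further abundant members of a list. The comparison, its members and the lists were chosen with earlier results of these data known. Alternatives (DESeq2 1.42.0, limma 3.58.1 voom with sample weights, glmTreat, other factors, filters and library sets, the replicate letter as a block, omission of each library) were run. Sequences were from RefSeq (GRCm38.p6) and gene context from GENCODE (GRCm38).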

Additional observations from a re-analysis of the deposited data

Results flagged for a closer look

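The named miRNAs called between KD6 and WT input were the 12 with the smallest p in each direction, with miR-10a-5p and miR-374b-3p. Of these, 18 also differed in level between day 6 and day 3. The test was the edgeR quasi-likelihood contrast of KD6 input with KD3 input, which is the test of the difference between both comparisons with WT. Called miRNAs outside the naming rule were not looked at here. Over all tested miRNAs 45 of 533 (8.44%) were called in that contrast. The same KD6 libraries enter both comparisons, and the named called miRNAs were chosen on them, so the count of 18 is a description and no independent evidence. Among the 18, the largest difference in size was that of miR-194-5p, with a log2 ratio of 1.88 between day 6 and day 3 (adjusted p = 0.00206), from -0.64 against WT at day 3 and 1.25 at day 6, although KD6 input A held 1 read of it. The smallest p among the 18 was that of miR-299a-3p, at -1.27 (adjusted p = 0.000729), from 0.55 against WT at day 3 to -0.72 at day 6, lower in 3 of 3 KD6 libraries than in every KD3 library.

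The others that were higher at day 6 than at day 3 were miR-206-3p (1.12, adjusted p = 0.0026), miR-669o-5p (1.28, adjusted p = 0.00305), miR-669c-5p (1.04, adjusted p = 0.00792), miR-143-5p (0.71, adjusted p = 0.00997), miR-1983 (0.99, adjusted p = 0.0106), miR-374b-3p (1.27, adjusted p = 0.02), miR-503-3p (0.81, adjusted p = 0.02), miR-181a-1-3p (0.59, adjusted p = 0.0309) and miR-379-3p (0.69, adjusted p = 0.0345). The others that were lower were miR-214-3p (-0.89, adjusted p = 0.00305), miR-181a-2-3p (-0.91, adjusted p = 0.00941), miR-183-5p (-0.83, adjusted p = 0.00954), miR-423-3p (-0.68, adjusted p = 0.0207), miR-10a-5p (-0.70, adjusted p = 0.0229), miR-423-5p (-0.64, adjusted p = 0.0309) and miR-1947-5p (-0.81, adjusted p = 0.0406). Of these, miR-143-5p and miR-379-3p had the largest ratios to WT already at day 3, at 0.58 and 0.42, which did not pass the threshold there. All groups held 3 libraries, too few for a search for single outlying libraries within a group.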

How the results depend on the processing

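The number of miRNAs called (43, of which 26 higher and 17 lower) ranged from 10 to 118 when 1 input library was left out (5 to 60 higher and 5 to 58 lower), the lowest without WT input B and the highest without KD6 input A. It was 20 (12 higher and 8 lower) from the 6 compared libraries alone, 23 (2 and 21) with all 18 libraries in the fit, 11 (6 and 5) at an adjusted p of 0.01, and 1 (1 and 0) by glmTreat beyond 1.5-fold. Upper-quartile factors gave 13 higher, DESeq2 15 higher, no filter on low counts 42 higher, and limma voom with sample weights 26 lower. Without KD6 input A, 118 were called (60 and 58), and in alternatives chosen after the data were seen 106 higher and 31 lower with library size alone, 38 lower from the 5 compared libraries alone, and 76 (38 and 38) with a GC offset, where only miRNAs with a sequence were tested. At an adjusted p of 0.01 it was 58 (30 and 28). The cause of these shifts was not tested.

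Whether the replicate letters pair the samples cannot be decided from 3 libraries a group. Deviations from the group means of WT and KD6 libraries correlated at 0.28 for A, -0.02 for B and 0.47 for C over 210 miRNAs. KD6 input A and C correlated best with the WT library of their own letter, and KD6 input B with WT input A. With the replicate letter as a block, 31 miRNAs were called (18 higher and 13 lower), 101 without KD6 input A (49 and 52), and 18 (9 and 9) from the 6 libraries alone, which was added after the data were seen.

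Among single miRNAs, the ratio of miR-21a-5p, 0.11 with all inputs, ranged from -0.44 without KD6 input A to 0.32 without KD6 input C over the omissions of 1 library, was -0.0042 without WT input B, and turned to -0.29 with all 18 libraries, -0.041 with total mapped reads as library size, -0.18 with voom and -0.031 from 6 libraries with the replicate block. That of let-7i-5p turned to -0.16 with all 18 libraries, and that of miR-378a-3p ranged from -0.87 without KD6 input A to 0.013 and 0.037 without KD6 input B or C. Of summed shares, the difference for the let-7 family (0.547 percentage points) turned to -0.191, -1.13 and -0.127 without WT input C, KD6 input B or KD6 input C and was 2.89 without KD6 input A, that for the miR-17/92 clusters to -0.0301 and -0.221 without KD6 input B or C and was 0.321 without KD6 input A, and that for mesenchymal miRNAs to -3.18 without KD6 input A and was 4.98 without KD6 input C. The count of miRNAs with the same direction in IP (28 of 33) was 27 to 30 when single libraries were left out. With 3 libraries a group the depth of KD6 input A limits what is detectable there to about 17.3 CPM, and counts below that cannot show a change in that library.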
